A study of Mus musculus with 16 samples.

Results

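The AMPA receptor subunit genes Gria1, Gria2, Gria3 and Gria4 were followed in cells of mouse cortex and dorsal striatum sorted for a parvalbumin reporter and labelled as parvalbumin interneurons. The 4 members are the transcript clusters annotated with 1 of these symbols alone, out of 30142 genes with such a cluster. Each had a single cluster, and all 4 passed the filter that left out the 33.3% of genes with the lowest means. Cells carrying the red fluorescent protein tdTomato were isolated by fluorescence-activated sorting from mice aged 30 days, labelled as C57BL/6J males. There were 16 arrays, 4 in each of 4 groups. PVCre;tdTomato striatum and PVCre;tdTomato cortex came from mice of genotype PVCre/+; tdTomato/+, in which Cre recombinase under parvalbumin control switches the reporter on. PV-tdTomato striatum and PV-tdTomato cortex came from PV-tdTomato/+ mice, which the labels describe as having no Cre. The striatal tissue was dorsal striatum and the cortical tissue was motor and somatosensory cortex. No group was treated, and every mouse of both lines carried a tdTomato allele. Each replicate was a pool of 2000 cells from 2 to 4 mice, so a value describes a pool and not an animal.

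AMPA receptors are the ligand-gated channels that carry fast excitatory transmission, and each is an assembly of subunits encoded by the Gria genes. The GluA2 subunit, encoded by Gria2, is edited at the RNA level in its pore, and receptors that hold edited GluA2 pass little calcium. GluA1 (Gria1) is known for activity-dependent delivery to synapses, GluA3 (Gria3) commonly assembles with GluA2, and GluA4 (Gria4) gives receptors with fast kinetics. Parvalbumin interneurons are known for fast, calcium-permeable AMPA receptors, with much GluA4 and little GluA2.

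The values are log2 levels from Affymetrix Mouse Transcriptome Arrays, summarised by the authors with RMA. The level of a cluster depends on its probes, so no level is compared between genes, but all 4 members lay above the background probe sets, whose means reached 6.10, in every array. Pvalb, the gene that marks the sorted cells, fell into 2 separate ranges. It was 10.20 to 12.48 in 10 arrays and 6.69 to 8.40 in the other 6, which were PVCre;tdTomato cortex replicates 2 and 4 and replicates 3 and 4 of both PV-tdTomato groups. Oligodendrocyte markers, 9 of 10 measured, averaged 12.34 to 15.33 in every array, far above that background. Of 10 parvalbumin interneuron markers, all measured, Gad1 was 11.63 to 14.43 outside PVCre;tdTomato cortex replicates 2 and 4, where it was 8.88 and 7.40, and Syt2 was at 5.33 to 6.72 throughout. The mean of these markers was 7.74 and 6.92 in the same 2 arrays, against 8.88 to 11.86 in the other 14. The low Pvalb of 6 arrays, the low Gad1 of 2 of them and the oligodendrocyte markers of all 16 go against a label of parvalbumin interneurons alone, so the arrays are named by line and region. Xist, expressed from the inactive X chromosome of females, was 13.40 to 16.01 in 8 arrays and 5.71 to 6.56 in the other 8, although all mice were labelled male. In such pools, fewer cells of a type and less RNA per cell cannot be told apart.

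Promoters are shown for Gria2 and Gria4, the members with the largest and the smallest adjusted p between striatum and cortex, for which RefSeq's table holds a promoter. Each runs from 250 bases before to 50 bases after the start used in that table, on GRCm38.p6, 5′ to 3′. Capitals mark the CG dinucleotides. The Gria2 window is chr3:80802786-80803085 and the Gria4 window chr9:4796185-4796484, both on the minus strand. The whole Gria2 window lies inside the annotated gene, chr3:80681450-80804227, and does not reach the outer start of that gene. The Gria4 window spans the annotated start of its gene, at 4796234.
Gria2: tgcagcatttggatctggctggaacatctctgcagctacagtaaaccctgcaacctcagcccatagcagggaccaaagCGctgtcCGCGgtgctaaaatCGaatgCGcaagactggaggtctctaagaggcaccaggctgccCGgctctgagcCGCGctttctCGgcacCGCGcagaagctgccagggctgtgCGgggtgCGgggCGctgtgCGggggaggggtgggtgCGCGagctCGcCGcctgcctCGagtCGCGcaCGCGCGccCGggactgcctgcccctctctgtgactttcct
Gria4: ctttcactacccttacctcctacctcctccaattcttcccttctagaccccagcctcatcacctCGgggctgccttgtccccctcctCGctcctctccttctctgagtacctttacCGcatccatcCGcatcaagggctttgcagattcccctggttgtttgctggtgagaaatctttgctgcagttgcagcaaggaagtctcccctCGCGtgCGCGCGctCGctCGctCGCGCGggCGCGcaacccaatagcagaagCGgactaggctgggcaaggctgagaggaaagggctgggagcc
The Gria2 window holds 26 CG dinucleotides, more than 83.1% of the 32851 promoters in the table, and the Gria4 window 17, more than 68.6%. The median promoter holds 7. GC content is 65.7% for Gria2 and 59.7% for Gria4, against a median of 52.7%. Of 5 motifs searched on both strands, with overlaps between motifs allowed, the core of NRF1 sites was found in the Gria2 window and not in that of Gria4. It occurs in 4.60% of all promoters. An E-box, CANNTG, was found in each window, as in 72.3% of promoters. Neither window holds the Sp1 core GGGCGG, found in 35.7% of promoters, the TATA box letters TATAAA, found in 13.6%, or the cAMP response element TGACGTCA, found in 1.79%. These matches describe letters only.

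Gria1 had the largest SD of the 4 genes in every group. In PVCre;tdTomato striatum its log2 level was 10.94, 12.69, 13.51 and 12.96 in replicates 1 to 4, with a mean of 12.52 ± 1.11 (SD, n = 4). In PVCre;tdTomato cortex it was 10.18, 7.95, 11.90 and 7.56, with a mean of 9.40 ± 2.03. The cortical replicates 2 and 4 were the lowest Gria1 values of all 16 arrays and were also low in Pvalb. In PV-tdTomato striatum the level was 14.89, 14.54, 12.74 and 13.23, with a mean of 13.85 ± 1.03. In PV-tdTomato cortex it was 13.44, 13.26, 10.21 and 10.56, with a mean of 11.87 ± 1.72. In both of these groups replicates 3 and 4, the arrays low in Pvalb, were the lower pair.

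Gria2 followed the reporter line. Its level was 10.69, 11.33, 11.66 and 11.45 in PVCre;tdTomato striatum (mean 11.28 ± 0.42) and 11.08, 9.81, 11.69 and 10.36 in PVCre;tdTomato cortex (mean 10.74 ± 0.82; SD, n = 4). In PV-tdTomato striatum it was 12.98, 13.11, 13.30 and 13.37 (mean 13.19 ± 0.17), and in PV-tdTomato cortex 13.04, 13.23, 13.08 and 13.86 (mean 13.30 ± 0.38). All 8 PV-tdTomato arrays lay above all 8 PVCre;tdTomato arrays. The share of all genes that separate the lines in this way is not given. Between the lines, 53.4% of all genes were called in striatum and 53.6% in cortex. Within the PV-tdTomato line, replicates low in Pvalb were not lower in Gria2.

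Gria3 was tight in the PV-tdTomato line and wide in the other. It was 10.44, 11.45, 12.41 and 12.08 in PVCre;tdTomato striatum (mean 11.60 ± 0.87) and 10.38, 8.58, 12.05 and 7.80 in PVCre;tdTomato cortex (mean 9.70 ± 1.90; SD, n = 4). Again cortical replicates 2 and 4 were far below the rest. In PV-tdTomato striatum the level was 12.90, 12.80, 12.61 and 12.29 (mean 12.65 ± 0.27), and in PV-tdTomato cortex 12.72, 12.27, 12.25 and 12.90 (mean 12.53 ± 0.33). These PV-tdTomato groups overlapped.

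Gria4 separated the regions within each line. In PVCre;tdTomato striatum it was 11.48, 12.20, 13.01 and 12.85 (mean 12.38 ± 0.70), against 10.25, 8.85, 11.14 and 9.46 in PVCre;tdTomato cortex (mean 9.92 ± 0.99; SD, n = 4). In PV-tdTomato striatum it was 13.57, 13.47, 12.05 and 12.31 (mean 12.85 ± 0.78), against 11.89, 11.90, 11.35 and 11.73 in PV-tdTomato cortex (mean 11.72 ± 0.26). Within each line, every striatal array exceeded every cortical array. How many of all genes separate the regions so is not given.

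Ordered by group mean, Gria1 and Gria4 ran from PV-tdTomato striatum through PVCre;tdTomato striatum and PV-tdTomato cortex to PVCre;tdTomato cortex. For Gria1, every pair of neighbours in that order overlapped. For Gria4 only the last step, of 1.79, was between groups that did not overlap. Gria2 ran from PV-tdTomato cortex through PV-tdTomato striatum and PVCre;tdTomato striatum to PVCre;tdTomato cortex, and only the step of 1.91 between the lines was free of overlap. Gria3 ran from PV-tdTomato striatum through PV-tdTomato cortex and PVCre;tdTomato striatum to PVCre;tdTomato cortex, with overlap at every step.

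**Figure D1:**
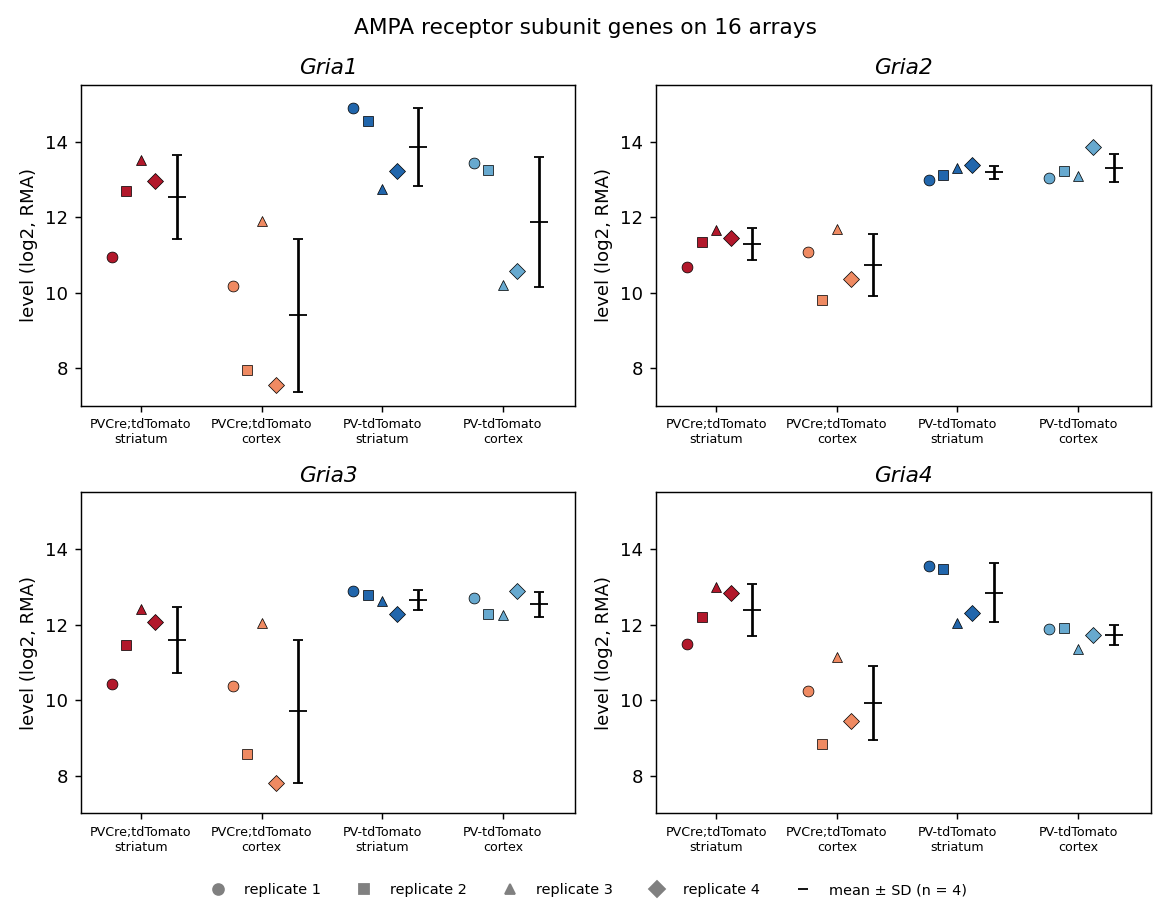
Log2 RMA level (y axis) of the 4 AMPA receptor subunit genes in each of the 4 groups (x axis), 1 point per array with the symbol giving the replicate number, and a bar for the mean ± SD (n = 4). Gria2 lies between 12.98 and 13.86 in the PV-tdTomato arrays, above all PVCre;tdTomato arrays, and Gria4 is higher in striatum than in cortex on every array of the same line.

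The comparison of striatum with cortex asked how the sorted pools of the regions differ. Over both lines, Gria4 rose by 1.79 ± 0.34 on the log2 scale in striatum (SE), 3.47-fold, with an adjusted p of 0.00472 by limma's moderated test over 20095 genes. It was the only member called, 1 of 4, where 3.37% of all genes were called higher and 4.32% in either direction. The estimate for Gria1 was larger, 2.56 ± 0.70, with an adjusted p of 0.0562. Gria3 differed by 1.00 ± 0.49 (adjusted p = 0.345) and Gria2 by 0.22 ± 0.24 (adjusted p = 0.672, 95% interval -0.29 to 0.72). The median difference of the members was 1.40, against 0.00276 over all genes tested.

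Gria4 stayed called in each of the 14 other settings tried for both lines, with differences of 1.51 to 2.29 and adjusted p of at most 0.0144. Its difference without the 6 arrays low in Pvalb was 1.65 (adjusted p = 0.0144). Gria1 changed its call with the setting. With replicate numbers within each line as a block, its adjusted p was 0.0129. That block covers both lines, although deviations from group means of same-numbered arrays correlated at -0.29 to 0.69 in PVCre;tdTomato. Without the 6 arrays low in Pvalb the Gria1 difference was 1.43 with an adjusted p of 0.148. Leaving out PVCre;tdTomato cortex replicate 3 gave adjusted p of 0.0141 for Gria1 and 0.0425 for Gria3, and leaving out PV-tdTomato striatum replicate 3, PV-tdTomato cortex replicate 1 or 2 or PVCre;tdTomato striatum replicate 1 gave 0.0399 to 0.0495 for Gria1.

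Marker levels of other cells were not the same in the regions. Those of striatal projection neurons, 6 of 8 measured, averaged 7.91 to 8.95 in PVCre;tdTomato striatum against 6.46 to 7.06 in PVCre;tdTomato cortex. The same list averaged 9.02 to 9.58 in PV-tdTomato striatum against 7.15 to 8.47 in PV-tdTomato cortex. Within that list, Penk was 6.77 to 7.70 in PVCre;tdTomato striatum against 5.03 to 5.55 in PVCre;tdTomato cortex, where it lay within the range of background. Drd1 was the only measured member to overlap in PVCre;tdTomato, at 7.63 to 9.04 in striatum against 7.15 to 9.04 in cortex. In PV-tdTomato, Ppp1r1b, Rgs9 and Pde10a did not overlap. Drd1, Drd2 and Penk did, with Penk at 8.83 to 9.42 in striatum against 5.78 to 9.57 in cortex. Motile cilia markers, 4 of 5 measured, averaged 11.48 to 13.08 in PVCre;tdTomato striatum against 5.90 to 6.44 in PVCre;tdTomato cortex, and 9.99 to 11.07 in PV-tdTomato striatum against 5.72 to 5.93 in PV-tdTomato cortex. The part of these 2 lists in the Gria4 result was not tested. Oligodendrocyte markers ran the other way in the PVCre;tdTomato line, with 14.30 to 14.60 in striatum against 14.99 to 15.33 in cortex. With their mean as a covariate the Gria4 difference over both lines was 1.52 (adjusted p = 0.00725). Endothelial and pericyte markers, 8 of 8 measured, averaged 7.41 to 9.62 in PVCre;tdTomato striatum against 6.08 to 6.64 in PVCre;tdTomato cortex, while the PV-tdTomato groups overlapped. With that mean as a covariate Gria1 passed, at 4.09 over both lines (adjusted p = 0.015) and 5.85 in PVCre;tdTomato (adjusted p = 0.0409), and Gria4 was 2.29 and 3.33 (adjusted p = 0.013 and 0.0344). The oligodendrocyte and endothelial means each separate the regions in PVCre;tdTomato, so region and these markers cannot be told apart in that line. Astrocyte markers, 8 of 8 measured, averaged 7.002 to 7.33 in PVCre;tdTomato striatum against 6.06 to 6.72 in PVCre;tdTomato cortex, and their part in these results was not tested. Higher in PV-tdTomato cortex were pyramidal neuron markers, 6 of 7 measured, at 6.63 to 7.38 in striatum against 7.45 to 7.65 in cortex. Of these, only Nrn1 did not overlap (5.98 to 6.12 against 7.53 to 9.10). Other interneuron markers, 9 of 9 measured, were also higher there, at 8.14 to 8.48 against 10.18 to 12.59. Both lists overlapped between the regions in PVCre;tdTomato, and their part was not tested.

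Within the PVCre;tdTomato line, Gria4 rose by 2.46 ± 0.48 in striatum, 5.50-fold (adjusted p = 0.00792), and was again the 1 member of 4 called, against 2.9% of genes called higher and 3.96% in either direction. Gria1 differed by 3.13 ± 0.99 (adjusted p = 0.113), Gria3 by 1.89 ± 0.69 (adjusted p = 0.18) and Gria2 by 0.54 ± 0.34 (adjusted p = 0.463). The 2 cortical replicates low in Pvalb enter each of these values. Leaving out the 6 arrays low in Pvalb, which keeps 2 cortical arrays, Gria4 differed by 1.69 (adjusted p = 0.0661), Gria1 by 1.49, Gria3 by 0.38 and Gria2 by -0.11. Without cortical replicate 3 instead, Gria1 and Gria3 passed, with adjusted p of 0.0293 and 0.0107.

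In the PV-tdTomato line none of the 4 members was called, where 1.76% of genes were called higher, 0.602% lower and 2.36% in either direction. Gria4 differed by 1.13 ± 0.48, with an adjusted p of 0.514 by limma and an unadjusted p of 0.033, although its groups did not overlap. Gria1 differed by 1.98 ± 0.99 (adjusted p = 0.694, unadjusted p = 0.0647). Gria3 differed by 0.12 ± 0.69, and Gria2 by -0.11 ± 0.34 with a 95% interval of -0.83 to 0.61. Same-numbered arrays of this line varied together, and with that number as a block Gria4 had an adjusted p of 0.208 and Gria1 of 0.26. The Gria4 difference without the 6 arrays low in Pvalb was 1.62 (adjusted p = 0.093).

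The difference between the lines in the striatum-minus-cortex value was tested as an interaction, and 0 of 4 members passed, against 0.149% of genes called higher, 0.0498% called lower and 0.199% in either direction. It was 1.33 ± 0.68 for Gria4 (adjusted p = 0.755, unadjusted p = 0.0699) and 1.78 ± 0.98 for Gria3 (adjusted p = 0.814, unadjusted p = 0.0908), larger in PVCre;tdTomato. For Gria1 it was 1.14 ± 1.40 and for Gria2 0.65 ± 0.47. No member reached an unadjusted p under 0.05 by limma. Over the 10 arrays high in Pvalb the interaction was 0.07 for Gria4, 0.03 for Gria3, 0.12 for Gria1 and -0.02 for Gria2.

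**Figure D2:**
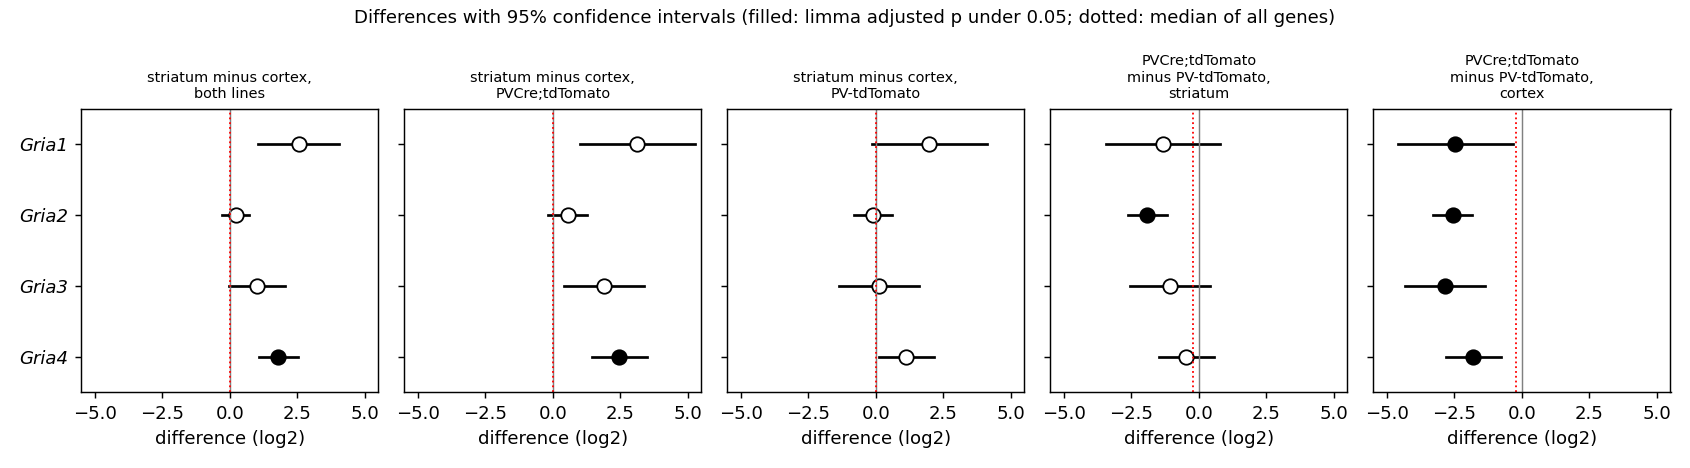
Difference on the log2 scale (x axis) for each member (y axis) in 5 comparisons, striatum minus cortex or PVCre;tdTomato minus PV-tdTomato, with 95% confidence intervals. Filled points passed the limma test at an adjusted p under 0.05, and the dotted line is the median of all genes. Gria4 is called in the striatum-minus-cortex comparison over both lines (1.79) and in PVCre;tdTomato (2.46), and all 4 members are called lower in PVCre;tdTomato cortex.

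Subtracting the level of Gria2 on the same array removes what moves both genes alike, and asks whether the members differed unequally between groups. Over both lines, Gria4 minus Gria2 was higher in striatum by 1.58 (exact permutation test within lines, two-sided, p = 0.000816, adjusted over 15 tests p = 0.0122). It averaged 0.38 ± 1.01 in the 8 striatal arrays and -1.20 ± 0.51 in the 8 cortical arrays. Gria1 minus Gria2 was higher by 2.34, averaging 0.95 ± 0.96 in striatum and -1.39 ± 1.51 in cortex (exact permutation p = 0.00449, adjusted p = 0.0337). Gria3 minus Gria2 differed by 0.79 (exact permutation p = 0.04, adjusted p = 0.0857). Leaving out 1 array at a time, the Gria4 call held in all 16 fits, and the Gria1 call was lost in 8 of 16 (adjusted p up to 0.0714), those without PV-tdTomato striatum replicate 1 or 2, PV-tdTomato cortex replicate 3 or 4, PVCre;tdTomato striatum replicate 2, 3 or 4, or PVCre;tdTomato cortex replicate 4. Without PVCre;tdTomato cortex replicate 3, Gria3 minus Gria2 passed at 1.02 (adjusted p = 0.0449). Without the 6 arrays low in Pvalb neither call was kept after adjustment. Gria4 minus Gria2 then differed by 1.75 and Gria1 minus Gria2 by 1.53, each with an exact permutation p of 0.0111, the smallest those 10 arrays can give, and an adjusted p of 0.0833.

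Within PVCre;tdTomato, Gria4 minus Gria2 was 0.79, 0.87, 1.35 and 1.40 in striatum, against -0.83, -0.96, -0.56 and -0.91 in cortex. The low cortical replicates 2 and 4 did not stand apart here, and the groups were 1.92 apart with SDs of 0.32 and 0.18. In PV-tdTomato it was 0.58, 0.36, -1.24 and -1.06 in striatum, against -1.15, -1.32, -1.73 and -2.13 in cortex, with overlap between the groups. With same-numbered arrays of this line taken as pairs, Gria4 minus Gria2 was higher in striatum in 4 of 4 pairs, by 1.73, 1.69, 0.48 and 1.06. So was Gria1 minus Gria2, by 1.51, 1.40, 2.31 and 3.15. For each, the exact permutation p over these 4 pairs was 0.125, the smallest they allow. Over both lines with these pairs kept, Gria4 and Gria1 relative to Gria2 each had an exact permutation p of 0.00179 (adjusted p = 0.0134). That p is the smallest this test allows. The pairs are an assumption, since striatal replicates 2 and 4 of the PV-tdTomato line correlated most with cortical replicates 1 and 3. Gria4 minus Gria2 was also higher in PVCre;tdTomato than in PV-tdTomato, by 1.44 in striatum and by 0.77 in cortex, without overlap in either region. With 4 arrays against 4 the smallest exact permutation p is 0.0286. It was reached by these 2, by Gria4 minus Gria2 between the regions in PVCre;tdTomato, and by Gria1 minus Gria2 there, and none of the 4 passed adjustment (adjusted p = 0.0714). Without the 6 arrays low in Pvalb the line difference in striatum was 0.63 for Gria4 minus Gria2, and that for Gria1 minus Gria2 was -0.43, against 0.58 over all arrays.

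**Figure D3:**
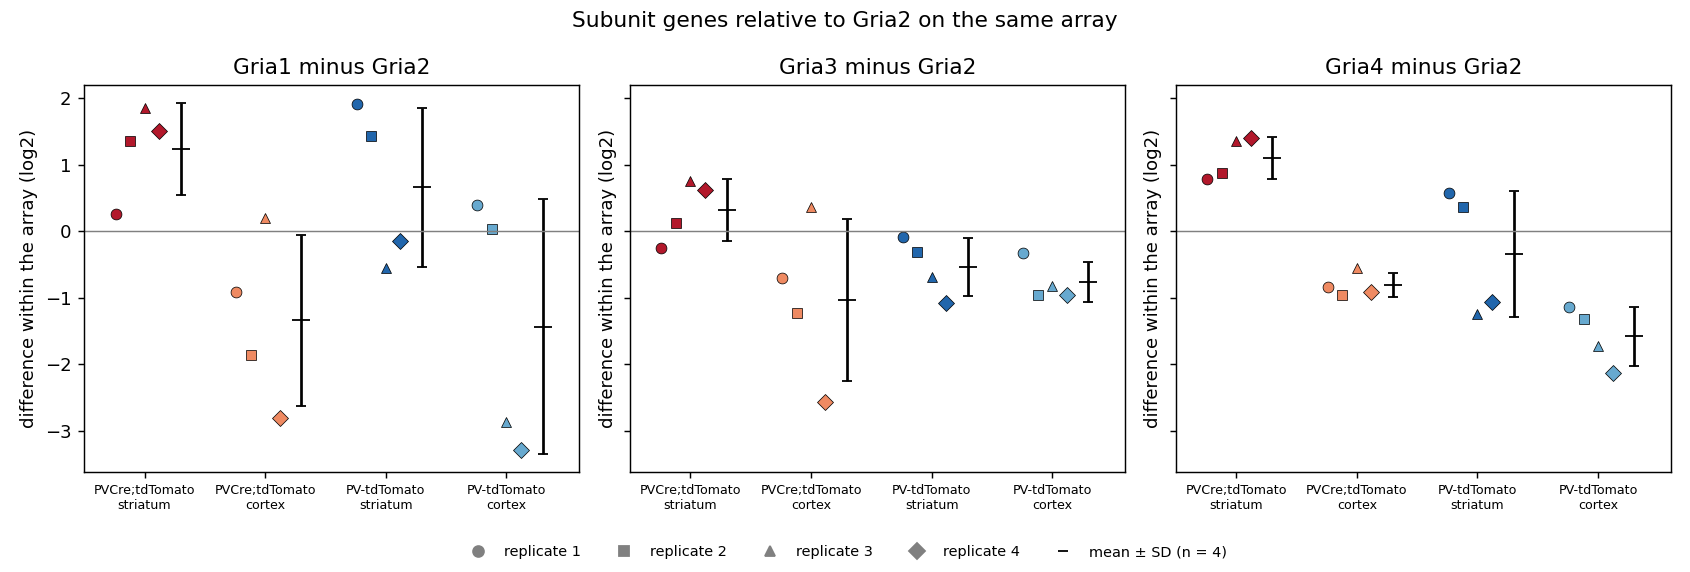
Gria1, Gria3 and Gria4 minus Gria2 on the same array (y axis, log2 difference) in the 4 groups (x axis), 1 point per array with the mean ± SD (n = 4). For Gria4 minus Gria2, PVCre;tdTomato striatum lies at 0.79 to 1.40 and PVCre;tdTomato cortex at -0.96 to -0.56.

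The comparison of PVCre;tdTomato with PV-tdTomato arrays touches most genes, since 53.4% of all genes were called in striatum, and 53.6% in cortex. A measure of signal, the median of the positive minus that of the negative control probe sets, also separated the lines. It was 3.08 to 3.93 in PVCre;tdTomato arrays and 4.16 to 4.85 in PV-tdTomato arrays, without overlap. Its part and that of the line cannot be told apart. In striatum 1 of 4 members was called lower, against 35.3% of all genes called lower. That member was Gria2, which fell by 1.91 ± 0.34 in PVCre;tdTomato striatum (adjusted p = 0.000299), to 3.76-fold below PV-tdTomato striatum. The others differed by -1.33 ± 0.99 for Gria1 (adjusted p = 0.278), -1.05 ± 0.69 for Gria3 (adjusted p = 0.216) and -0.47 ± 0.48 for Gria4 (adjusted p = 0.434). When the 6 arrays low in Pvalb were left out, Gria1 and Gria4 also passed, at -2.19 (adjusted p = 0.0228) and -1.14 (adjusted p = 0.0416).

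In cortex all 4 members were called lower in PVCre;tdTomato, against 34.6% of all genes called lower. Gria3 fell by 2.83 ± 0.69 (adjusted p = 0.00341), Gria2 by 2.56 ± 0.34 (adjusted p = 2.8e-05) and Gria4 by 1.79 ± 0.48 (adjusted p = 0.00595), each with no overlap between the groups. The share of all genes without overlap between these groups is not given, so this is not shown to be particular to the members. Gria1 fell by 2.47 ± 0.99 (adjusted p = 0.0481) with overlapping groups, and it passed in 6 of 15 other settings. The median of the 4 was -2.52, against -0.23 over all genes. Quantile normalization moved the median of all genes to 0.02 and the members to -2.001 (Gria1, adjusted p = 0.0853), -2.25 (Gria2), -2.37 (Gria3) and -1.23 (Gria4). Without the 6 arrays low in Pvalb, Gria3 differed by -1.28 (adjusted p = 0.147) and Gria4 by -1.20 (adjusted p = 0.0661), while Gria2 fell by 1.74 (adjusted p = 0.0024) and Gria1 by 2.31 (adjusted p = 0.039).

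Several marker lists moved with the line. Microglial markers, 8 of 9 measured, averaged 7.65 to 8.86 in PVCre;tdTomato striatum and 7.42 to 9.56 in PVCre;tdTomato cortex. They averaged 5.45 to 5.75 in PV-tdTomato striatum and 5.36 to 5.82 in PV-tdTomato cortex, means within the range of background. Among them Cx3cr1 lay above that range, at 6.79 to 7.33 in PV-tdTomato striatum and 6.27 to 7.61 in PV-tdTomato cortex, and C1qa reached 6.30 in the latter. With the microglial mean as a covariate none of the 5 line calls on members was kept, and the differences in cortex were 1.34 for Gria1 and 0.18 for Gria3. Since that mean separates the lines completely, the part of the line and that of these markers cannot be told apart. Other interneuron markers, 9 of 9 measured, averaged 6.10 to 7.15 in PVCre;tdTomato cortex against 10.18 to 12.59 in PV-tdTomato cortex, and 6.29 to 7.16 in PVCre;tdTomato striatum against 8.14 to 8.48 in PV-tdTomato striatum. Oligodendrocyte precursor markers, 6 of 7 measured, averaged 7.34 to 8.22 in PVCre;tdTomato arrays against 8.76 to 12.19 in PV-tdTomato arrays. With the precursor mean as a covariate, Gria2 fell by 1.62 in striatum (adjusted p = 0.0112) and by 2.30 in cortex (adjusted p = 0.000882). Endothelial and pericyte markers averaged 7.41 to 9.62 in PVCre;tdTomato striatum against 6.14 to 6.69 in PV-tdTomato striatum, and with them as a covariate the striatal Gria2 call was lost, at -1.37 (adjusted p = 0.0537). Oligodendrocyte markers averaged 14.99 to 15.33 in PVCre;tdTomato cortex against 12.74 to 14.97 in PV-tdTomato cortex. With their mean as a covariate the cortical calls of Gria4 (-1.12, adjusted p = 0.069) and Gria1 (-0.70, adjusted p = 0.52) were lost, while Gria2 fell by 2.66 and Gria3 by 2.50 (adjusted p = 0.000114 and 0.0218). The lines are also separated by the precursor mean in both regions, the endothelial mean in striatum and the oligodendrocyte mean in cortex. There too, the part of the line and that of the markers cannot be told apart. High Xist was in 6 of 8 PVCre;tdTomato arrays against 2 of 8 PV-tdTomato arrays. For the X-linked Gria3, the cortical difference with Xist as a covariate was -2.97 (adjusted p = 0.00589).

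The relation of the members to Pvalb was examined within the 2 ranges of Pvalb, which are separated by a gap of 1.80, and no correlation is given across it. Over the 10 arrays high in Pvalb, Gria3 had a Pearson r of 0.76 (permutation p = 0.0103, adjusted over 8 relations p = 0.0826) and a Spearman rho of 0.52 (permutation p = 0.133). None of the 8 relations passed adjustment, and rho ran from 0.20 to 0.66 (permutation, adjusted p of at least 0.434). In these 10 arrays r was 0.53 for Gria1, 0.45 for Gria2 and 0.34 for Gria4. In the 6 arrays low in Pvalb r was 0.44 for Gria1, 0.06 for Gria2, 0.16 for Gria3 and 0.18 for Gria4. Without the 2 arrays farthest from the median of Pvalb, r over the other 8 of the upper range was 0.67 for Gria1, 0.41 for Gria2, 0.79 for Gria3 and 0.63 for Gria4.

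Those ranges pool both lines and both regions. The relation was also taken within lines, where only the 6 PVCre;tdTomato arrays high in Pvalb are enough for it, 4 striatal and 2 cortical. There Gria2 had r of 0.96 (exact permutation p = 0.00139, adjusted over 4 relations p = 0.00556) and rho of 1.0 (exact permutation p = 0.00278, adjusted p = 0.0111). Gria3 had r of 0.91 (exact permutation p = 0.0139, adjusted p = 0.0278) and rho of 0.77 (exact permutation, adjusted p = 0.206). Gria1 had r of 0.66 and rho of 0.60, and Gria4 r of 0.39 and rho of 0.31, which did not pass by the same exact permutation test (adjusted p = 0.221 and 0.438 for r). Permutations over these 6 arrays ignored region. Without the 2 arrays farthest from the median, r over the 4 that remained was 0.96 for Gria1, 0.98 for Gria2, 1.00 for Gria3 and 0.98 for Gria4. Those were striatal replicates 2 to 4 and cortical replicate 1. The cortical array was the lowest of them in Pvalb (10.56) and in every member, with Gria4 at 10.25, so region and Pvalb cannot be told apart there. Gad1, a second marker of these cells, was 11.63 to 14.43 in the same 6 arrays, and endothelial and pericyte markers averaged 9.62 in the lowest of the 4 striatal arrays, replicate 1, against 7.41 to 7.78 in the other 3. Their part in these relations was not tested. The PV-tdTomato line has 4 arrays in each range, under the 6 set for a tested correlation, and none is given. There Gria1 was 13.26 to 14.89 in the 4 arrays high in Pvalb and 10.21 to 13.23 in the 4 low ones. Gria2 was 12.98 to 13.23 in the high and 13.08 to 13.86 in the low. The same split separated glial markers in this line. Oligodendrocyte precursor markers averaged 8.76 to 9.496 in the 4 high arrays and 11.37 to 12.19 in the 4 low ones. Oligodendrocyte markers averaged 12.34 to 12.83 in the high and 14.34 to 14.97 in the low. The part of Pvalb and that of these glial markers in the Gria1 and Gria2 ranges was not tested.

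**Figure D4:**
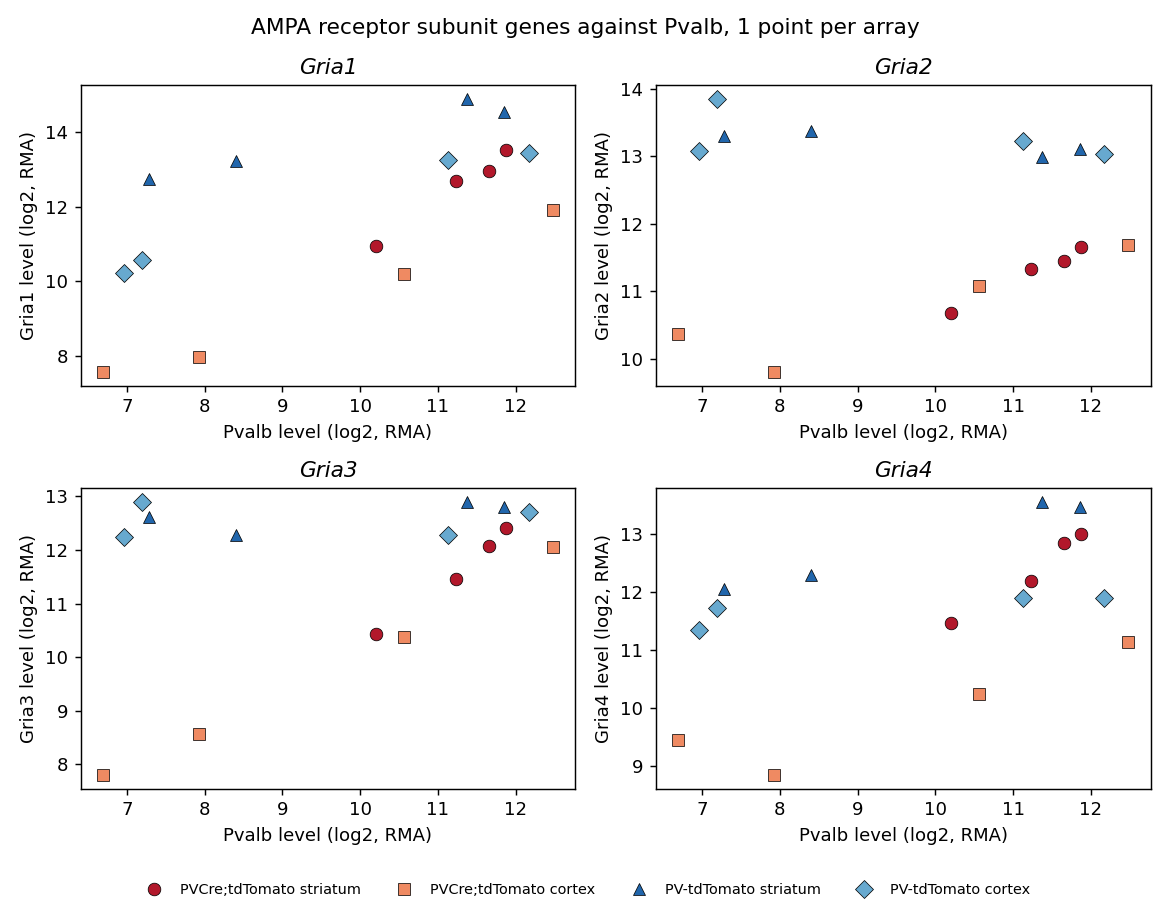
Log2 level of each member (y axis) against the log2 level of Pvalb (x axis), 1 point per array, with the symbol giving the group. The arrays fall into 2 ranges of Pvalb, 6.69 to 8.40 and 10.20 to 12.48, and Gria2 of the PV-tdTomato arrays stays at 12.98 to 13.86 over both.

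The genes whose levels were most like each member are given by Pearson r over the 16 arrays, as a description, since the arrays share groups and hold other cells. For Gria1 these were Rit2 (0.98), a neuronal small GTPase, Nsg2 (0.97), Septin3 (0.97) and Ajap1 (0.97). For Gria2 they were Astn1 (0.98), a neuronal adhesion protein of glial-guided migration, Afg1l (0.98), Pitrm1 (0.98), a mitochondrial peptidase, and Adgrl3 (0.97), a latrophilin. For Gria3 they were Galnt13 (0.97), Nmnat2 (0.95), an axonal NAD-synthesising enzyme, Kcnd2 (0.95), the Kv4.2 potassium channel, and Lrrtm3 (0.95). For Gria4 they were Nrcam (0.98), a cell adhesion molecule, Nxph1 (0.98), a neurexin ligand, Prkcb (0.97), a protein kinase C, and Lin7a (0.97). On deviations from group means, r stayed at 0.94 to 0.98 for the 4 genes of Gria1 and of Gria4, and was 0.85 to 0.87 for those of Gria2 and 0.88 to 0.95 for those of Gria3.

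Among the members, on the same deviations, r was 0.85 for Gria1 and Gria4, 0.83 for Gria2 and Gria3, and 0.81 for Gria3 and Gria4. It was 0.76 for Gria1 and Gria3, 0.66 for Gria2 and Gria4, and 0.51 for Gria1 and Gria2. These r values carry no test.

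Genes that work with the receptor were taken from a list of 39, in which 37 were tested, since Cacng8 and Nptxr had no cluster with 1 symbol here. Over both lines 3 were called higher in striatum and 3 lower, against 3.37% and 0.955% of all genes. Their median difference was 0.03, against 0.00276 over all genes. Grip1, a scaffold that binds GluA2 and GluA3, rose by 2.16 ± 0.58 (adjusted p = 0.0488). The auxiliary subunit gene Gsg1l rose by 0.80 ± 0.18 (adjusted p = 0.0149), and Shisa7, first described as an AMPA receptor partner and known also at GABA-A receptors, by 0.66 ± 0.11 (adjusted p = 0.00167). Adarb2, an editing-enzyme homologue without known editing activity, fell by 2.62 ± 0.39 (adjusted p = 0.000557). Shisa9, the auxiliary subunit CKAMP44, fell by 1.01 ± 0.25 (adjusted p = 0.0327), and Porcn, an acyltransferase found in AMPA receptor complexes, by 0.55 ± 0.13 (adjusted p = 0.0297). When the 6 arrays low in Pvalb were left out, 2 were higher and 4 lower, against 4.67% and 3.3% of all genes under that setting, and Grip1 (adjusted p = 0.0784) and Porcn (adjusted p = 0.102) were lost.

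In the PVCre;tdTomato line 2 of the 37 were called higher in striatum, Grip1 by 3.24 ± 0.82 and Shisa7 by 0.68 ± 0.16, and 1 lower, Porcn by -0.89 ± 0.19, against 2.9% of all genes called higher and 1.06% lower. None was higher and 2 were lower without the 6 arrays low in Pvalb, against 2.1% and 1.41% of all genes then, and Grip1 differed by 2.49 (limma adjusted p = 0.0956). In the PV-tdTomato line 2 were called higher, Gsg1l by 1.08 ± 0.25 and Shisa7 by 0.64 ± 0.16, against 1.76% of all genes. There 4 were called lower, against 0.602% of all genes: Adarb2 by -5.10 ± 0.55, Shisa9 by -1.67 ± 0.35, the TARP-family gene Cacng5 by -1.17 ± 0.24 and Nptx2, a secreted pentraxin that clusters AMPA receptors, by -0.59 ± 0.14. With the replicate number as a block, 1 was higher (Shisa7, adjusted p = 0.0307) and 2 were lower, among them Adarb2 (adjusted p = 0.00287), against 2.04% and 0.836% of all genes with the block. Shisa7 was called higher in each line when all arrays were used.

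Adarb2 had the 1 interaction called among the 37, where 0.199% of all genes were called and 0.149% called higher, at 4.96 ± 0.78 (adjusted p = 0.016), and at an adjusted p of 0.0562 with the replicate block. Its level averaged 5.62 ± 0.12 in PVCre;tdTomato striatum and 5.76 ± 0.13 in PVCre;tdTomato cortex, both within the range of background. It averaged 7.61 ± 0.67 in PV-tdTomato striatum and 12.70 ± 1.53 in PV-tdTomato cortex (SD, n = 4). Adarb2 is known to mark interneurons of the caudal ganglionic eminence, and it is also in the list of other interneuron markers. Of that list, Vip was 5.03 to 6.43 in PV-tdTomato striatum against 9.55 to 15.31 in PV-tdTomato cortex. The part of such cells in the Adarb2 result was not tested. The editing enzymes themselves did not pass between regions, with 0.15 ± 0.32 for Adar (adjusted p = 0.846) and -0.09 ± 0.33 for Adarb1, which edits the pore site of Gria2 (adjusted p = 0.916).

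Between the lines, 25 of 37 partner genes were called lower in PVCre;tdTomato striatum and 32 of 37 in PVCre;tdTomato cortex, against 35.3% and 34.6% of all genes, and none was called higher in the fit of all 16 arrays, against 18.1% and 19% of all genes. The median difference was -1.11 in striatum and -1.63 in cortex. The furthest apart in striatum were the TARP gene Cacng7 (-2.41 ± 0.37), Dlg4, the scaffold PSD-95 (-2.38 ± 0.34), Epb41l1 (-2.38 ± 0.30) and Cacng3 (-2.36 ± 0.77). In cortex they were Adarb2 (-6.94 ± 0.55), Cacng4 (-3.35 ± 0.49), Nsf, an ATPase that binds GluA2 (-2.93 ± 0.70), and Shisa9 (-2.70 ± 0.35). By role, 13 of 16 auxiliary subunit genes, 10 of 18 trafficking and scaffold genes and 2 of 3 editing genes were lower in striatum, and 15, 14 and 3 of the same in cortex. Cacng2, which encodes stargazin, differed by -0.15 ± 0.96 in striatum and -1.10 ± 0.96 in cortex and was not called. Without the 6 arrays low in Pvalb, 31 were lower and 2 higher in striatum, against 39.4% and 16.8% of all genes under that setting, and 30 lower and 2 higher in cortex, against 29.5% and 17% of all genes. The microglial and other marker levels and the control probe set measure given for the members move with these counts as well.

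**Figure D5:**
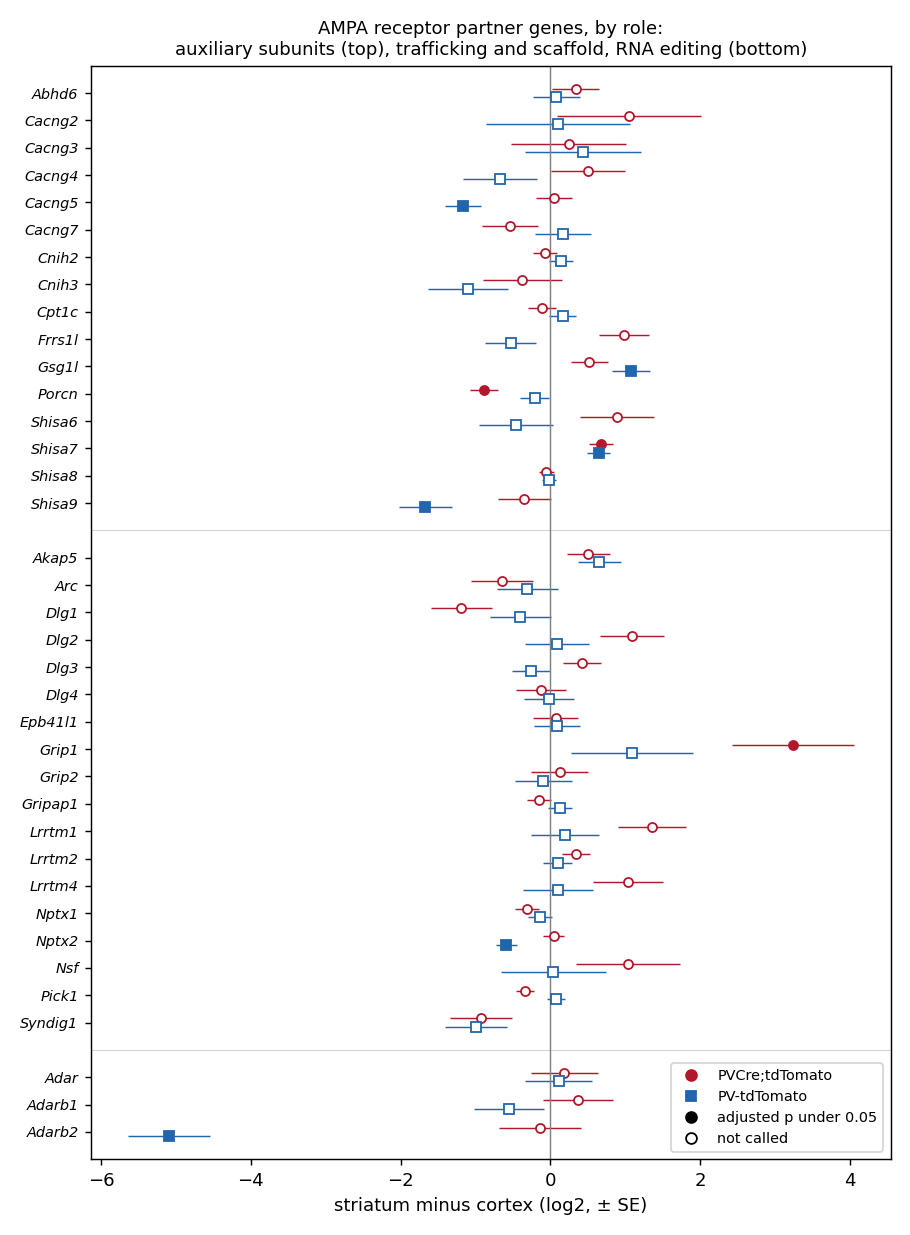
Difference between striatum and cortex (x axis, log2, ± SE) of the 37 partner genes tested (y axis, by role), in PVCre;tdTomato (circles) and PV-tdTomato (squares), filled where the adjusted p was under 0.05. Grip1 is at 3.24 in PVCre;tdTomato, and Adarb2 at -5.10 in PV-tdTomato against -0.14 in PVCre;tdTomato.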

How the data were processed

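The authors deposited log2 expression values of 72688 probe sets on 16 arrays, which the submitters' processing notes credit to RMA and Affymetrix Expression Console. Not given in the sources used here are the software version, the genome build and the set of arrays normalized together. Per the labels' protocols, 5 ng of Trizol-extracted RNA entered amplification and 5.5 µg of cDNA entered labelling.

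Of 65956 transcript clusters, 30604 had 1 gene symbol in the platform annotation, 2146 several and 33206 none. Symbols of 827 were updated through Entrez numbers. Only clusters with 1 symbol were used, the one with the highest mean for each of 355 genes with several, giving 30142 genes. The 33.3% with the lowest mean (under 5.53) were left out, leaving 20095. Array medians were 5.97 to 6.13, and no 2 arrays were identical. The number of arrays limits the precision, and the p-values set a group difference against the spread between pools.

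One model with a mean per group was fitted to all 16 arrays with limma 3.58.1 in R 4.3.3, with Benjamini-Hochberg adjustment over all genes tested and a threshold of 0.05. Levels relative to Gria2 and relations to Pvalb were tested by permutation in Python 3.11.15 with scipy 1.17.1. The limma step was tested on simulated data. Alternatives changed the filter, normalization, prior, array weights, arrays fitted, replicate block and covariates, or left out arrays. The precursor and endothelial covariates, and the partner counts and levels relative to Gria2 without the 6 arrays low in Pvalb, and the paired test of those levels, were chosen after seeing the data.

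Replicate numbers come from the titles. The descriptions number PVCre;tdTomato cortex replicates 1 to 4 as CTX3, CTX4, CTX6 and CTX7, so the correlations of that line's same-numbered arrays hold for the titles' numbers only. Deviations from group means of same-numbered striatal and cortical arrays correlated at 0.58 to 0.76 in the PV-tdTomato line, which were taken as pairs, and at -0.29 to 0.69 in PVCre;tdTomato, which were not. Line comparisons gave -0.64 to 0.50. Striatal replicates 2 and 4 of the PV-tdTomato line correlated most with cortical replicates 1 and 3, so its pairs are an assumption. The replicate block of the limma alternatives was set in every comparison, also for same-numbered arrays that were not taken as pairs.

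Named were the 4 members, Pvalb and Gad1, for each comparison up to 4 called partner genes in each direction and those with a role in the text, and the 4 genes with the highest r for each member. Members and lists were chosen with earlier results of these data known. Promoter sequences are from RefSeq (GRCm38.p6).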

Additional observations from a re-analysis of the deposited data

How the results depend on the processing

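Over both lines, Gria1 (striatum minus cortex) passed at 3.12 with array weights, 2.56 with the replicate block, 1.83 with Pvalb, 2.17 with the oligodendrocyte precursor mean and 4.09 with the endothelial and pericyte mean as a covariate. In PVCre;tdTomato it passed at 2.95, 3.13, 1.92 and 5.85 with array weights, the replicate block, Pvalb and the endothelial mean, and Gria3 at 1.70 with array weights, while Gria4 missed at 1.69 without the 6 arrays low in Pvalb. In PV-tdTomato, Gria1 passed at 3.29 with array weights and 1.74 with Pvalb, and Gria4 at 1.61 with array weights. Between the lines in striatum, Pvalb as a covariate brought Gria1 (-2.32), Gria3 (-1.52) and Gria4 (-0.86) past the threshold, the precursor mean Gria1 (-3.78), and leaving out the 6 arrays Gria1 (-2.19) and Gria4 (-1.14). Gria2 missed there at -1.27 with the microglial and -1.37 with the endothelial mean. In cortex Gria1 missed at -2.47 with no filter, centred arrays, only the compared arrays or the replicate block, and at -2.001 with quantile normalization, -1.23 with array weights, -0.70 with the oligodendrocyte mean and -2.18 with Xist. Gria4 missed at -1.12 with the oligodendrocyte mean and -1.20 without the 6 arrays, and Gria3 at -1.28 without them. With the microglial mean Gria2 (-1.85) and Gria4 (-0.37) missed, and Gria1 (1.34) and Gria3 (0.18) turned sign. Members that were not called also turned sign. Between the lines in striatum these were Gria1 (2.07), Gria3 (1.63) and Gria4 (0.80) with the microglial mean, the same genes with the endothelial mean (1.21, 0.22 and 0.34), and Gria4 (0.027) with the oligodendrocyte mean. Without the 6 arrays Gria2 turned to -0.10 over both lines, -0.11 in PVCre;tdTomato and -0.022 for the interaction, and with array weights the Gria1 interaction turned to -0.34. The cause was not tested. Another 304 values under these settings kept direction and side.

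Leaving out 1 array at a time gave 2.25 to 2.97 (Gria1) and 0.69 to 1.40 (Gria3) over both lines, 2.52 to 3.96 and 1.26 to 2.68 in PVCre;tdTomato, and -3.30 to -1.86 for Gria1 between the lines in cortex, which missed without PVCre;tdTomato cortex replicate 1, 2 or 4 or PV-tdTomato cortex replicate 1 or 2. Gria2 in PV-tdTomato gave -0.20 to 0.076. The other 242 such values kept direction and side. Relative to Gria2, without the 6 arrays, Gria1 (1.53) and Gria4 (1.75) missed over both lines, and between the lines Gria1 turned to -0.43 in striatum and -0.57 in cortex and Gria3 to 0.46 in cortex, while Gria4 in striatum was 0.63. Leaving out 1 array gave 2.03 to 2.64 for Gria1 and 0.53 to 1.02 for Gria3 over both lines, and -0.53 to 0.70 and -0.74 to 0.24 between the lines in cortex. With quantile normalization r with Pvalb in the lower range turned to -0.27 for Gria2, -0.13 for Gria3 and -0.10 for Gria4. Without the 2 arrays farthest from the median, r with Pvalb in the lower range was 0.95, 0.89, 0.89 and 0.95 for Gria1 to Gria4, over 4 arrays.

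The genes called numbered 869 over both lines (590 to 5675 under 14 settings), 796 in PVCre;tdTomato (398 to 2529), 474 in PV-tdTomato (283 to 1646), 10721 between the lines in striatum (2476 to 15188), 10762 in cortex (1365 to 15375) and 40 for the interaction (23 to 176). The share called higher over both lines was 77.9%, against 67.1% with centred arrays, 58.6% without the 6 arrays, 58.1% with array weights, 55.4% with the replicate block (the lowest of 14 settings) and 84.2% with the endothelial mean (the highest). It ran from 52.9% to 83.4% in PVCre;tdTomato (73.1% as reported) and from 61.9% to 84.5% in PV-tdTomato (74.5% as reported). Between the lines it was 33.9% in striatum and 35.4% in cortex, against 16.8% and 19.85% with the microglial mean and 49.7% and 52.2% with quantile normalization, which moved the median of all genes to -0.02 and 0.02. No other cluster stood for a member, so that alternative was not run, and for both lines and the interaction a fit of only the compared arrays is the fit reported.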
